A study of Mus musculus and Acomys cahirinus with 84 samples.

Results

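Primary skin fibroblasts of the African spiny mouse, *Acomys cahirinus*, were compared 12 d after a gamma ray dose of 10 Gy with untreated fibroblasts of the same animals. The comparison holds 8 of the 84 RNA-seq libraries of the study, which were chosen by species, time and treatment in the labels and paired by replicate number. There are 4 libraries at 10 Gy and 4 labelled as plain untreated, and a separate 12 d group labelled untreated and passaged was not part of the comparison. Each replicate number carries 1 animal code in the library names, so the pairs are called animals 1 to 4 here. All 8 libraries are stranded polyA RNA libraries of batch B2 in the labels, and neither age, sex, passage number nor genotype of the animals is given in the sources used here. The other groups used are *A. cahirinus* at 12 d after 20 Gy, *A. cahirinus* untreated and at 10 Gy at 24 h (batch B1), and C56BL6 mouse fibroblasts untreated and at 10 Gy at 12 d, with 4 libraries in each group.

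Ionising radiation breaks DNA, and the ATM kinase then stabilises p53, a transcription factor that raises genes of cell cycle arrest, repair and cell death. Fibroblasts that do not resume division can become senescent: they keep CDK inhibitors high, hold genes of replication and mitosis low, lose lamin B1 and secrete cytokines, growth factors and proteases, together called the secretory phenotype. Spiny mice are known for regrowing skin with little scarring. The question set by the design is how much of this response stands in the cells 12 d after the dose.

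Total counts were 28.4 to 41.8 M in the 8 libraries, and levels under 3 counts, that is 0.0717 to 0.106 CPM depending on the library, are called the floor. CPM are counts per M counts of the library, with its size scaled by TMM, and the floor covers counting error only. Animal 2 stood apart from the other 3 animals in all 4 groups of *A. cahirinus* at 12 d: on the second principal component, with 29.9% of the variance, its libraries lay at 25.7 to 50.8 and those of the others at -33.5 to 15.3. The cultures held the 14 listed fibroblast markers at a summed 42700 to 52200 CPM untreated and 34800 to 49900 CPM at 10 Gy. They also held skeletal muscle markers, which the label does not name. The muscle regulator Myod1 measured 132, 65.1, 137 and 99.1 CPM in untreated animals 1 to 4, and the embryonic myosin gene Myh3 measured 3300, 1330, 2770 and 3170 CPM. Summed over the 8 muscle markers, the untreated libraries held 8730, 4020, 8160 and 8290 CPM and the 10 Gy libraries 11400, 3560, 9660 and 11300 CPM. The 2 ranges overlapped, animal 2 was lowest in both groups, and 1 of the 8 markers rose (Acta1) while 1 fell (Pax7). C56BL6 libraries at 12 d held 7.88 to 53.9 CPM of the same list, with Myog and Pax7 at 0 CPM in all 4 untreated libraries. The T cell markers Cd3d, Cd3e, Cd3g and Cd2, the leukocyte marker Ptprc, the endothelial markers Emcn and Cldn5 and the keratinocyte markers Krt1 and Krt15 did not exceed the floor in any of the 8 libraries. The part of muscle-lineage cells in the results below was not tested.

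**Figure D1:**
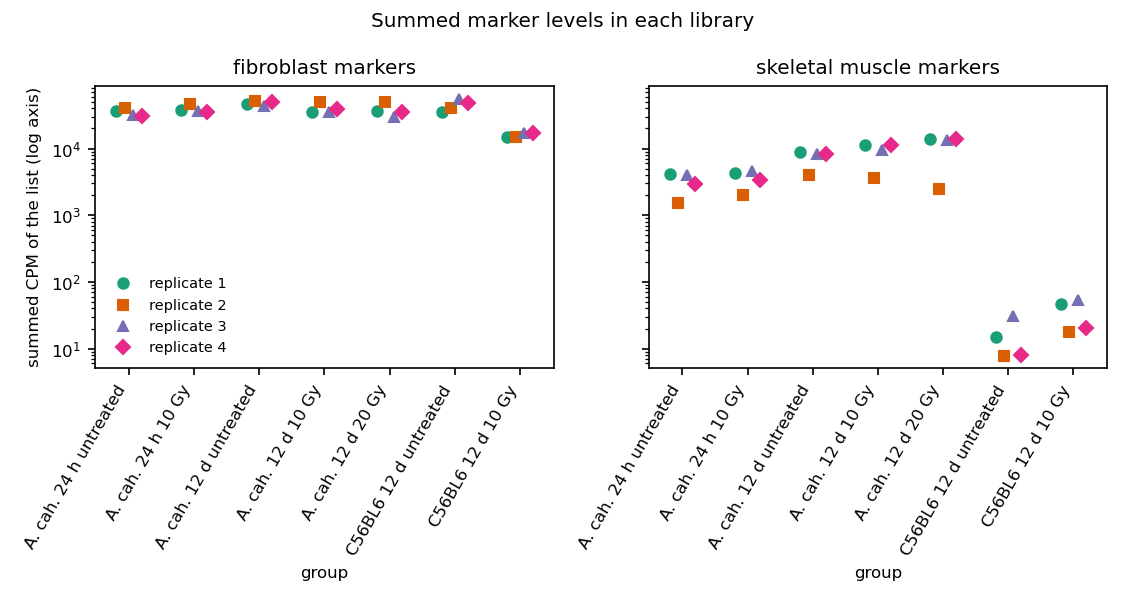
Summed level of 14 fibroblast markers (left) and 8 skeletal muscle markers (right) in each library, in CPM on a log axis, with 1 point per library and 1 symbol per replicate number. Muscle markers reach 1550 to 14100 CPM in the *A. cahirinus* groups shown and 7.88 to 53.9 CPM in C56BL6, and replicate 2 is the lowest in each *A. cahirinus* group; replicate numbers of the 2 populations are different animals.

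Broad but mostly modest shifts were present at 12 d. With the animal as a block, edgeR called 3638 of 13215 genes at an adjusted p under 0.05, or 27.5%: 1870 were higher at 10 Gy (14.2%) and 1768 lower (13.4%). The median log2 fold change of the called genes was 0.51 for those higher and -0.44 for those lower, and 415 rose and 145 fell by at least a log2 value of 1. Without the block 379 genes were called (2.87%), and all of them, 170 higher (1.29%) and 209 lower (1.58%), were also called with it. The 4 untreated and the 4 irradiated libraries did not overlap for 1955 genes (14.8%), higher at 10 Gy in 903 (6.83%) and lower in 1052 (7.96%). Leaving out animal 1 gave 1175 calls and leaving out animal 3 gave 1613, while leaving out animal 2 gave 3564 (27%, with 14% higher and 13% lower) and leaving out animal 4 gave 3234. In bulk libraries such as these, fewer cells of a type and less RNA per cell cannot be told apart.

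Genes induced by p53 were higher at 10 Gy. Of 52 tested p53 targets, 27 rose and 2 fell, with a median log2 fold change of 0.35 against -0.01 over all genes, and the median was above 0 in each animal, at 0.29, 0.44, 0.22 and 0.22. Without the block 4 rose and 0 fell, without animal 2 the counts were 25 and 2, and without animal 1 they were 13 and 0. Cdkn1a encodes p21, the CDK inhibitor that p53 induces to stop the cycle, and its gene model spans positions 4994091 to 5004665 of chromosome 7 in the deposited annotation. It measured 976, 675, 862 and 683 CPM in untreated animals 1 to 4 and 1710, 1610, 1220 and 1240 CPM at 10 Gy. Every irradiated library lay above every untreated one, and the fold was 1.82 (log2 0.86 ± 0.12 SE, edgeR adjusted p = 0.00336, or 0.0446 without the block). Ccng1, which encodes the p53-induced cyclin G1, measured 148, 175, 104 and 94.4 CPM untreated and 309, 443, 208 and 200 CPM irradiated. It rose 2.19-fold (log2 1.13 ± 0.08 SE, edgeR adjusted p = 0.000361), and its groups did not overlap.

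The ubiquitin ligase gene Mdm2, which closes the feedback loop on p53, rose 1.69-fold, from 107, 124, 90.7 and 89.6 CPM to 183, 262, 126 and 142 CPM (edgeR adjusted p = 0.00297). Among p53 targets of cell death, 9 of 12 tested rose and 1 fell. Pmaip1 encodes the BH3-only protein NOXA and rose 3.06-fold, from 9.03, 3.59, 6.94 and 7.41 CPM to 31.1, 17.4, 16.2 and 17.1 CPM (edgeR adjusted p = 0.00165, and 0.0411 without the block). Eda2r, a death receptor of the TNF receptor family, rose 2.4-fold from 28.4, 19.5, 18 and 10.9 CPM to 53.6, 38, 39.9 and 44.4 CPM (edgeR adjusted p = 0.00293). In these 3 genes every irradiated library again lay above every untreated one. Cyfip2, a regulator of actin assembly, rose from 5.78 to 7.63 CPM over the untreated libraries to 18.4, 7.86, 19.3 and 19.6 CPM (edgeR adjusted p = 0.00596), with animal 2 far below the others at 10 Gy. Gdf15, a secreted stress cytokine that p53 also induces, did not pass the test: it measured 3.42, 4, 3.14 and 3.91 CPM untreated and 3.43, 4.29, 3.62 and 3.81 CPM irradiated. Those 2 ranges overlap throughout (log2 difference 0.07 ± 0.13 SE, edgeR adjusted p = 0.703).

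CDK inhibitors moved in both directions. Of 7 tested, 3 rose and 3 fell. Cdkn2a, the locus of p16 and ARF and a common marker of senescence, measured 50.4, 86.9, 34.1 and 50 CPM untreated and 105, 162, 59.5 and 80.1 CPM irradiated. The groups overlapped because the animals differed, yet every animal rose (log2 0.87 ± 0.08 SE, edgeR adjusted p = 0.000877, or 0.223 without the block). Its neighbour Cdkn2b, which encodes p15, rose in all 4 animals as well, from 50.1, 61.5, 33.9 and 53.9 CPM to 78.8, 97.3, 47.2 and 81.4 CPM (log2 0.61 ± 0.07 SE, edgeR adjusted p = 0.00142). Cdkn1b (p27), Cdkn1c (p57) and Cdkn2c (p18), whose names were taken after their values were seen, fell by 0.61, 0.73 and 0.44 on the log2 scale. In the wider list of CDK inhibitors, G1 cyclins, RB and E2F genes, 7 of 31 rose and 7 fell, with a median of -0.04, and without animal 1 the counts were 6 and 1. Ccnd1, which encodes cyclin D1, rose 1.95-fold (311, 631, 212 and 224 to 696, 1080, 440 and 399 CPM, edgeR adjusted p = 0.000639), and E2f8, an E2F family gene of cycling cells, fell 1.91-fold (10.5, 12.9, 15.6 and 22 to 6.61, 2.59, 11.3 and 14.6 CPM, edgeR adjusted p = 0.0369).

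**Figure D2:**
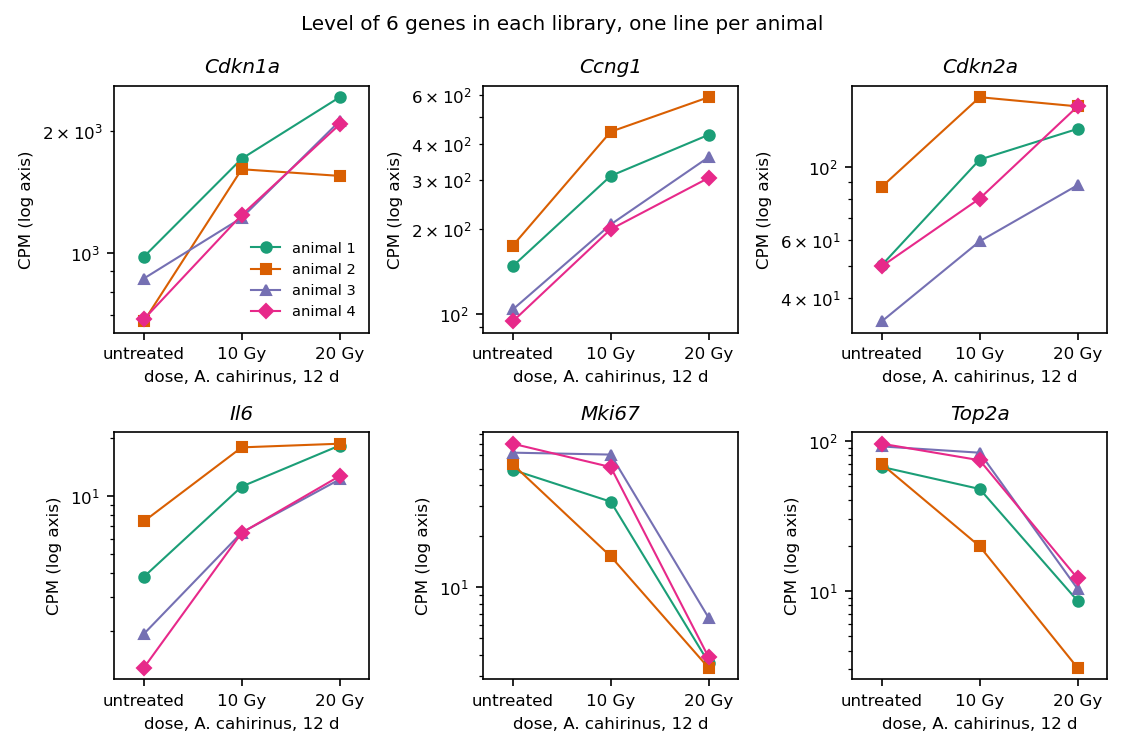
Level of 6 genes in each *A. cahirinus* library at 12 d, in CPM on a log axis, with 1 line per animal through its untreated, 10 Gy and 20 Gy library. Cdkn1a, Ccng1, Cdkn2a and Il6 rise in every animal from untreated to 10 Gy, whereas Mki67 and Top2a drop most in animal 2 at 10 Gy and reach 3.07 to 12.1 CPM in all 4 animals at 20 Gy.

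Genes of cell division differed between animals at 10 Gy. Mki67 encodes the proliferation marker Ki-67 and lies on chromosome 17 of the deposited annotation, from 63777654 to 63802644. It measured 49.1, 52.9, 62 and 70 CPM untreated and 31.9, 15.2, 60.4 and 51 CPM irradiated. Animal 2 lost most of its level, animal 3 almost none, and the ranges of the groups overlapped (log2 difference -0.70 ± 0.24 SE, edgeR adjusted p = 0.0619, or 0.387 without the block). Top2a, the topoisomerase of dividing cells, had the same layout, with 66.9, 69.8, 91.6 and 95.5 CPM untreated and 47.7, 19.8, 83.2 and 74.1 CPM irradiated (log2 difference -0.67 ± 0.24 SE, edgeR adjusted p = 0.0683). Lmnb1, which encodes lamin B1, measured 45.6, 40.9, 59.1 and 53.7 CPM untreated and 29, 14.8, 60 and 50 CPM irradiated (log2 difference -0.52 ± 0.21 SE, edgeR adjusted p = 0.104). Hmgb2, a chromatin protein gene that is low in senescent cells, measured 32, 38.7, 42.2 and 38.2 CPM untreated and 22.5, 21.3, 41.9 and 32.2 CPM irradiated (log2 difference -0.39 ± 0.12 SE, edgeR adjusted p = 0.0503). None of these 4 genes passed the test. Untreated Mki67 was itself below the level in the passaged library of the same animal, given at the end.

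Over the whole mitosis and kinetochore list, 8 of 77 tested genes fell and 2 rose, with a median log2 fold change of -0.42. Called members were thus 13% of the list, fewer than the 27.5% of all genes (14.2% higher and 13.4% lower). The lower count depended on the fit: DESeq2 with the same block called 19 lower, and a fit over all 4 groups at 12 d called 14. The medians within animals were -0.23, -1.20, 0.04 and -0.30, with 75 genes below the untreated level in animal 2 and 33 in animal 3. Without animal 2 the median was -0.16, with 13 genes lower and 4 higher, while without animal 1, and also without the block, 0 genes were called in either direction. Cdk1, the kinase that drives entry into mitosis, was among those that fell, from 46.6, 45.6, 71.7 and 64.9 CPM to 33.5, 17, 58.5 and 43.2 CPM (edgeR adjusted p = 0.0198). Ncaph (a condensin subunit), Cenpa (the histone H3 variant of the centromere) and Prc1 (a spindle midzone protein) fell 1.61-fold, 1.61-fold and 1.59-fold. All 4 lost the call in at least 1 fit without a single animal, with highest edgeR adjusted p values of 0.0659, 0.0782, 0.066 and 0.0934.

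DNA replication genes gave 8 lower and 1 higher of 55, with a median of -0.27 and medians of -0.19, -0.57, 0.02 and -0.21 within animals. Called members made up 16.4% of the list, fewer than the 27.5% of all genes tested. Pola1, the catalytic subunit of the polymerase that primes synthesis, fell 1.59-fold, from 24.9, 20.1, 29.4 and 27.3 CPM to 14.2, 9.5, 21.8 and 20.2 CPM (edgeR adjusted p = 0.00632). Pold1 of polymerase delta fell 1.51-fold, the ligase gene Lig1 1.32-fold and the clamp loader gene Rfc4 1.31-fold, with edgeR adjusted p values of 0.0491, 0.0409 and 0.0452. Among homologous recombination and Fanconi genes 8 of 37 fell and 0 rose (21.6% called), with a median of -0.29. Rad51c and Rad51d, which act in recombination, fell 1.53-fold and 1.51-fold with no overlap between groups, and the nuclease gene Gen1 and the Fanconi gene Fanci fell 1.57-fold and 1.58-fold. Of the ATM signalling and end joining genes, 7 of 28 fell and 2 rose (32.1% called), with a median of -0.16. The kinase genes Atm and Atr measured 48.3, 30.6, 40.2 and 44.8 CPM and 24.9, 18.5, 26.3 and 26.5 CPM untreated. At 10 Gy they measured 28.6, 15.8, 31.3 and 41.4 CPM and 15.5, 10.2, 25 and 22.7 CPM, lower in each animal (edgeR adjusted p = 0.0218 and 0.0406). Mdc1, the adaptor that binds phosphorylated H2AX, fell 1.42-fold with no overlap between groups, and Etaa1, an activator of ATR, fell 1.35-fold.

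Nuclear envelope and HMGB genes gave 4 lower and 1 higher of 18, with a median of -0.19. That is 27.8% called, about the 27.5% of all genes. Lbr, the lamin B receptor gene, fell 1.34-fold, Tmpo, the gene of lamina-associated polypeptide 2, fell 1.3-fold, and the chromatin gene Hmga1 fell 1.5-fold. Its relative Hmga2 rose 1.71-fold (7.73, 6.94, 7.4 and 6.39 to 14.5, 7.25, 11.2 and 17.5 CPM, edgeR adjusted p = 0.0268), with animal 2 nearly level. Without the block 0 genes of the replication, recombination, ATM and envelope lists were called. Without animal 1 the lower counts went from 8 to 1 for replication, from 8 to 0 for recombination and Fanconi genes, from 7 to 1 for ATM and end joining and from 4 to 0 for the envelope list, which had 7 lower with DESeq2. Of the genes named from these 4 lists, Pola1 and Mdc1 kept an edgeR adjusted p under 0.05 in each fit without 1 animal, and the others, like E2f8 above, lost it in at least 1 such fit.

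**Figure D3:**
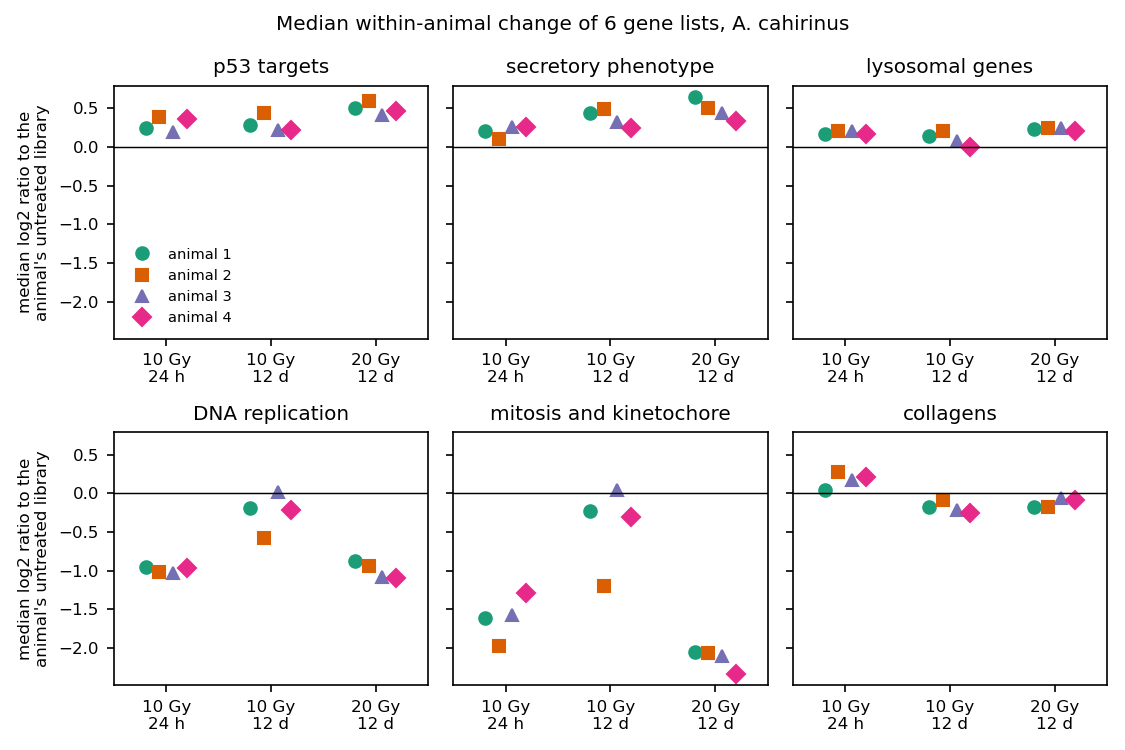
Median log2 ratio of irradiated to untreated library of the same animal (0.5 CPM added to both) for 6 gene lists, with 1 point per animal, at 24 h after 10 Gy and at 12 d after 10 and 20 Gy. For mitosis and kinetochore genes the points spread from -1.20 to 0.04 at 12 d after 10 Gy and lie between -2.33 and -2.05 after 20 Gy, while p53 targets lie above 0 in all 12 points.

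More called genes of the secretory list were higher than lower. Of 61 tested genes of the secretory list, 27 rose and 9 fell, with a median of 0.33 and medians of 0.44, 0.49, 0.32 and 0.24 within animals. Without the block 7 rose and 0 fell, and without animal 2 the counts were 26 and 10. All 7 called cytokines and chemokines, of 15 tested, were higher. Il6, the central inflammatory cytokine of senescent fibroblasts, measured 3.8, 7.38, 1.92 and 1.28 CPM untreated and 11.2, 17.9, 6.46 and 6.44 CPM irradiated. Each animal rose, but the levels of animal 2 untreated and animals 3 and 4 irradiated overlapped (log2 1.69 ± 0.17 SE, edgeR adjusted p = 0.00108, or 0.181 without the block). Ccl2, a chemokine that attracts monocytes, rose 4.29-fold, from 20.9, 36.1, 14.8 and 15.3 CPM to 94.9, 175, 54.4 and 62.2 CPM (edgeR adjusted p = 0.000109), with no overlap. Il11, a cytokine of the IL-6 family made by stromal cells, rose 3.63-fold from 8.35, 4.63, 5.27 and 3.62 CPM to 24.6, 8.48, 25.4 and 23.2 CPM (edgeR adjusted p = 0.00299, and 0.0411 without the block).

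Of the proteases and inhibitors, 6 of 19 rose and 3 fell. Mmp10, the gene of stromelysin 2, measured 0.103, 0.741, 0.384 and 0.204 CPM untreated and 1.73, 6.3, 1.79 and 0.27 CPM irradiated (edgeR adjusted p = 0.00576). It was higher in every animal, but in animal 4 by too few counts to be told from counting error. Untreated, it lay at about the floor in animal 1. Growth factors and IGF binding proteins split, with 14 of 27 higher and 6 lower. Angpt1, a ligand of the endothelial receptor TIE2, rose from 0.342, 2.14, 0.0698 and 0.0292 CPM to 0.727, 10.2, 0.906 and 0.629 CPM (edgeR adjusted p = 0.00524), and in 2 untreated libraries it lay under the floor. Igf1, a growth and survival factor of skin stroma, fell 3.11-fold from 42.7, 60.2, 32.5 and 30.2 CPM to 16.4, 22.2, 9.42 and 7.49 CPM (edgeR adjusted p = 0.000361). Its binding protein gene Igfbp4 fell 2.75-fold (30.5, 42.9, 26 and 27.5 to 10.3, 21.7, 8.44 and 8.27 CPM, edgeR adjusted p = 0.000886). Neither Igf1 nor Igfbp4 overlapped between the groups.

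**Figure D4:**
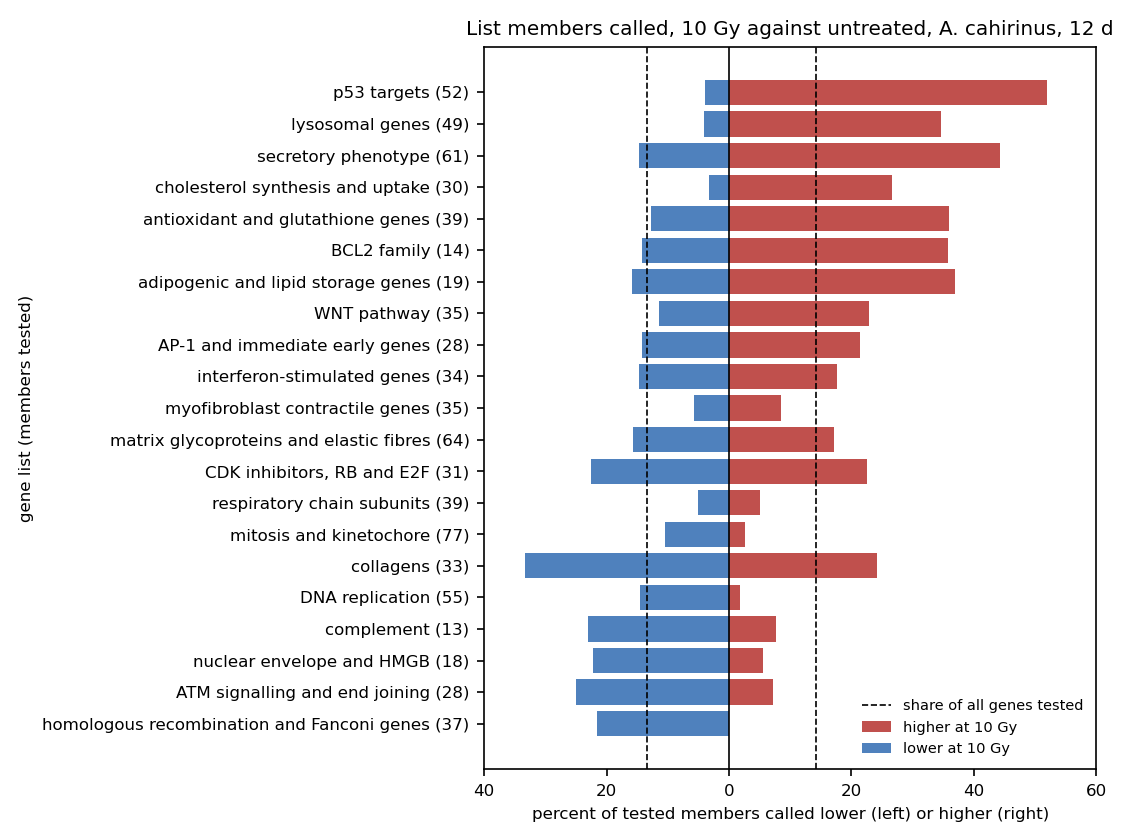
Percent of tested members of each of 21 gene lists called higher (right) or lower (left) at 10 Gy against untreated, A. cahirinus, 12 d, at an edgeR adjusted p under 0.05 with the animal as a block. Dashed lines mark the 14.2% of all genes called higher and the 13.4% called lower. The p53 targets, the secretory list and antioxidant, lysosomal, adipogenic and BCL2 family genes reach well past the right line. Collagens and the list of CDK inhibitors, RB and E2F genes reach well past both, and some other lists pass both by less.

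Collagens changed in both directions by class. Of 33 tested, 8 rose and 11 fell, with a median of -0.13, and without the block 2 rose and 2 fell. Microfibrillar and associated collagens had 6 of 14 lower and 1 higher, whereas basement membrane and network collagens had 5 of 10 higher and 1 lower. Fibrillar collagens were mixed, with 4 of 9 lower and 2 higher. Col6a2 and Col6a1, chains of collagen VI that forms beaded filaments around cells, fell from 407, 484, 440 and 465 CPM to 138, 256, 146 and 145 CPM and from 527, 659, 547 and 572 CPM to 213, 430, 196 and 202 CPM. Groups did not overlap in either chain, and animal 2 fell least (2.7-fold and 2.33-fold, edgeR adjusted p = 0.000886 and 0.00219). Col5a3, a fibrillar collagen chain, fell 2.37-fold from 792, 525, 743 and 1470 CPM to 354, 176, 386 and 583 CPM (edgeR adjusted p = 0.000523). The main fibrillar chains Col1a1 and Col1a2, among the fibroblast markers, fell from 9600 ± 1030 to 6860 ± 832 CPM and from 14200 ± 633 to 11200 ± 1910 CPM (SD, n = 4; edgeR adjusted p = 0.00719 and 0.0446). Col3a1, also fibrillar, was not called (edgeR adjusted p = 0.0592). Col22a1, a collagen of muscle-tendon junctions, rose 11.6-fold from 0.65, 0.237, 0.314 and 0.204 CPM to 11.3, 1.36, 3.41 and 2.43 CPM (edgeR adjusted p = 0.000449), and animal 2, lowest in muscle markers, had the lowest irradiated level.

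Other matrix genes were balanced, with 11 of 64 matrix glycoproteins, elastic fibre genes and proteoglycans higher and 10 lower, and a median of -0.04. At 32.8% called, they were near the 27.5% of all genes. Tnn, which encodes tenascin-W, fell 5.36-fold and is described below. Efemp1 (fibulin-3) rose 3.77-fold from 4.38, 25.1, 3 and 3.85 CPM to 27.1, 114, 11.9 and 5.69 CPM, Prg4 (lubricin) rose 2.81-fold and Fbn2 (fibrillin-2) rose 2.56-fold, with edgeR adjusted p values of 0.00367, 0.0012 and 0.00554. Myofibroblast contractile genes had 3 of 35 higher and 2 lower (14.3% called), with a median of 0.01. Ankrd1, a mechanosensitive target of YAP that is also expressed in muscle, rose 1.84-fold without overlap (1360, 802, 1350 and 1390 to 2550, 1610, 2170 and 2580 CPM, edgeR adjusted p = 0.00091). The actin-binding genes Tpm2 and Synpo2 rose 1.47-fold and 1.41-fold, and smooth muscle myosin Myh11 fell 1.83-fold. Of 13 complement genes 3 fell and 1 rose (30.8% called), with a median of -0.17. Complement C2 fell 2.93-fold without overlap (4.35, 4.72, 5.03 and 6.13 to 1.87, 2.01, 1.17 and 1.89 CPM, edgeR adjusted p = 0.0022, and 0.0336 without the block), C4b fell 3.06-fold and C1s1 1.9-fold, while the lectin pathway protease gene Masp1 rose 1.43-fold.

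Lysosomal, antioxidant and cholesterol genes had more calls higher than lower. Of 49 lysosomal genes 17 rose and 2 fell, with a median of 0.12, although leaving out animal 1 left 3 higher and 1 lower and leaving out the block left 1 in each direction. Lamp1, a membrane protein of lysosomes, rose 1.61-fold (502, 590, 426 and 432 to 830, 1080, 660 and 607 CPM, edgeR adjusted p = 0.00207). Gpnmb, a lysosomal glycoprotein found on senescent cells, rose 1.94-fold (9.79, 16.6, 9.98 and 17.8 to 26.8, 32.9, 19.2 and 24.2 CPM, edgeR adjusted p = 0.00446), and the cathepsin L gene Ctsl rose 1.35-fold. The groups of these 3 lysosomal genes did not overlap.

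Of 39 antioxidant and glutathione genes 14 rose and 5 fell, with a median of 0.20, and 1 rose without the block. Without animal 1, 7 rose and 0 fell. The haem oxygenase gene Hmox1 rose 2.62-fold, from 55.6, 128, 33.1 and 31.6 CPM to 140, 369, 88.2 and 74.9 CPM (edgeR adjusted p = 0.000158, or 0.241 without the block), close to the same ratio in each animal. Nqo1 and Srxn1, targets of the oxidative stress factor NRF2, rose 2.36-fold and 1.89-fold, and the glutathione synthetase gene Gss rose 1.69-fold, all 3 without overlap. Cholesterol synthesis and uptake genes had 8 of 30 higher and 1 lower, with a median of 0.12 (30% called, against 27.5% of all genes). Hsd17b7 and Sc5d, enzymes of the pathway, rose 1.79-fold and 1.41-fold without overlap. Nuclear-encoded respiratory chain genes had 2 of 39 in each direction (10.3% called): Ndufa4 and Cox8a rose 1.34-fold and 1.28-fold, and Sdhb fell 1.15-fold.

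Of 19 adipogenic and lipid storage genes 7 rose and 3 fell, with a median of 0.12. Car3, a carbonic anhydrase abundant in muscle and fat, rose 2.2-fold from 2240, 1670, 2530 and 2360 CPM to 6040, 2660, 6540 and 4890 CPM (edgeR adjusted p = 0.0015, or 0.0504 without the block), and animal 2 rose least. Lipoprotein lipase, Lpl, rose in each animal but mainly by level in animal 2 (0.137, 3.8, 0.523 and 0.992 to 0.796, 13.2, 1.31 and 1.14 CPM, edgeR adjusted p = 0.0197), Apod rose 2.94-fold and the lipid droplet gene Plin4 fell 2.06-fold. Interferon-stimulated genes had 6 of 34 higher and 5 lower, with a median of 0.12. At 32.4% called, this list was near the 27.5% of all genes. Ifitm3, an antiviral membrane protein, fell 2.14-fold from 128, 324, 214 and 133 CPM to 75, 220, 73.2 and 45.4 CPM (edgeR adjusted p = 0.00552) and the RNA sensor gene Ifih1 fell 1.64-fold, while Rtp4 rose 2.62-fold and the peptide transporter gene Tap1 1.51-fold.

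Of 28 AP-1 and immediate early genes 6 rose and 4 fell, with a median of -0.01 (35.7% called, against 27.5% of all genes). The MAP kinase phosphatase genes Dusp5, Dusp1 and Dusp6 rose 2.11-fold, 1.77-fold and 1.52-fold, and the AP-1 subunit gene Fosl1 rose 1.65-fold. In the BCL2 family 5 of 14 rose and 2 fell, with a median of 0.15. Besides Pmaip1, the death effector gene Bax rose 1.3-fold (89.5, 100, 74.3 and 85.9 to 110, 138, 106 and 98.4 CPM, edgeR adjusted p = 0.011) and Bok 1.46-fold, and the BH3-only gene Bmf fell 1.53-fold. WNT pathway genes had 8 of 35 higher and 4 lower (34.3% called), with a median of 0.06. The ligand gene Wnt2 rose 3.1-fold from 2.77, 3.32, 2.69 and 2.54 CPM to 5.71, 8.07, 7.32 and 16.3 CPM (edgeR adjusted p = 0.00472, and 0.0405 without the block), Wnt16 rose 2.22-fold, and Notum, a secreted enzyme that inactivates WNT ligands, rose 5.6-fold from 0.89, 0.267, 1.01 and 0.263 CPM to 4.57, 1.12, 5.91 and 2.04 CPM. Nkd2, an inhibitor inside the cell, fell 1.73-fold. Without animal 1, the genes higher and lower numbered 4 and 6 for collagens, 5 and 7 for other matrix genes, 2 and 0 for cholesterol genes, 2 and 0 for adipogenic genes, 1 and 1 for interferon-stimulated genes, 3 and 0 for AP-1 genes and 3 and 1 for WNT genes. In the matrix to WNT lists, the calls of Tpm2, Synpo2, Myh11, C1s1, Masp1, Lpl, Apod, Plin4, Ifih1, Tap1, Dusp6, Fosl1, Bax, Wnt16, Nkd2 and the 3 respiratory genes named were lost in at least 1 fit without a single animal.

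Scg2, Lgr6, Peg10 and Myh2 were among the 12 largest rises in genes with a mean of at least 5 CPM. Scg2, the secretogranin gene of secretory granules (chromosome 2, 38164104 to 38169666), measured 2.16, 2.55, 2.41 and 0.904 CPM untreated and 45.1, 10.6, 36 and 16.1 CPM irradiated. It rose 12.2-fold with no overlap (log2 3.61 ± 0.35 SE, edgeR adjusted p = 0.000918, or 0.0336 without the block), least in animal 2. Lgr6, a receptor of R-spondins that marks stem cells of the skin, rose 7.71-fold from 4.89, 2.28, 3.32 and 2.22 CPM to 34.5, 9.09, 30.2 and 28.5 CPM (edgeR adjusted p = 0.000472, and 0.0336 without the block). Myh2, a myosin of fast muscle fibres, rose 5.02-fold from 27.1, 10.3, 25.1 and 18.6 CPM to 171, 24.8, 128 and 138 CPM (edgeR adjusted p = 0.00104), and its highest untreated level exceeded the irradiated level of animal 2. Beside it stand the muscle markers of the same libraries: Acta1 rose from 2240 ± 583 to 3250 ± 1160 CPM and Pax7, a marker of muscle stem cells, fell from 65 ± 21.4 to 38.9 ± 18 CPM (SD, n = 4; edgeR adjusted p = 0.0124 and 0.00342), whereas Myod1 and Myog had edgeR adjusted p values of 0.311 and 0.249.

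In Peg10, Chrm2 and Dcaf12l1, as in Ccl2, Angpt2 and H2bc4, animal 2 had the highest level in both groups. Peg10, an imprinted gene derived from a retrotransposon, measured 5.61, 24.7, 6.04 and 1.87 CPM untreated and 25.6, 119, 30.3 and 13.2 CPM irradiated, a 5.19-fold rise. The muscarinic receptor gene Chrm2 went from 5.17, 18, 3.98 and 1.84 CPM to 28, 88.4, 15.6 and 11.3 CPM, and Dcaf12l1 from 3.05, 19.4, 2.62 and 1.14 CPM to 14.6, 96, 11.4 and 3.9 CPM. Levels of these 3 genes overlapped between the groups while the ratio within animals was alike (edgeR adjusted p = 0.000109, 0.000127 and 0.00015, and 0.179 to 0.303 without the block). Angpt2, which opposes Angpt1 at TIE2, rose 3.99-fold, the growth factor gene Fgf1 4.77-fold, the Notch ligand gene Dner 4.09-fold, the linker protein gene Hook1 4.33-fold and the histone gene H2bc4 4.18-fold. H2bc4 is a member of a family of near-identical histone genes, so its count is uncertain.

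Among the 12 largest falls, Tnn (chromosome 5, 33008698 to 33077821) stood first. It measured 660, 230, 811 and 968 CPM untreated and 97.1, 27.7, 232 and 222 CPM irradiated (log2 -2.42 ± 0.19 SE, edgeR adjusted p = 0.0005, or 0.107 without the block). Tfr2, which encodes transferrin receptor 2, fell 4.59-fold from 18.3, 14, 17.9 and 14.4 CPM to 2.8, 1.4, 5.56 and 5.18 CPM (edgeR adjusted p = 0.00225). Heyl, a transcriptional target of Notch, fell 3.65-fold from 26, 24.3, 50.5 and 44.9 CPM to 7.69, 4.8, 13.1 and 15.6 CPM (edgeR adjusted p = 0.000294, and 0.048 without the block), and Tgfbr3, the betaglycan coreceptor of TGF-beta, fell 3.54-fold from 6.5, 12.1, 11 and 13.7 CPM to 2.01, 3.3, 3.05 and 3.72 CPM. Tfr2, Heyl and Tgfbr3 did not overlap between the groups. The fibroblast membrane protein gene Lrrc15, a marker of TGF-beta activated fibroblasts, fell 3.69-fold, the neurotrophin receptor gene Ntrk3 3.38-fold, the imprinted zinc finger gene Zim1 3.19-fold, the phospholipid transporter gene Atp8b1 3.11-fold, the G protein gene Gna14 3.03-fold and the protease gene Adamts9 2.76-fold.

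**Figure D5:**
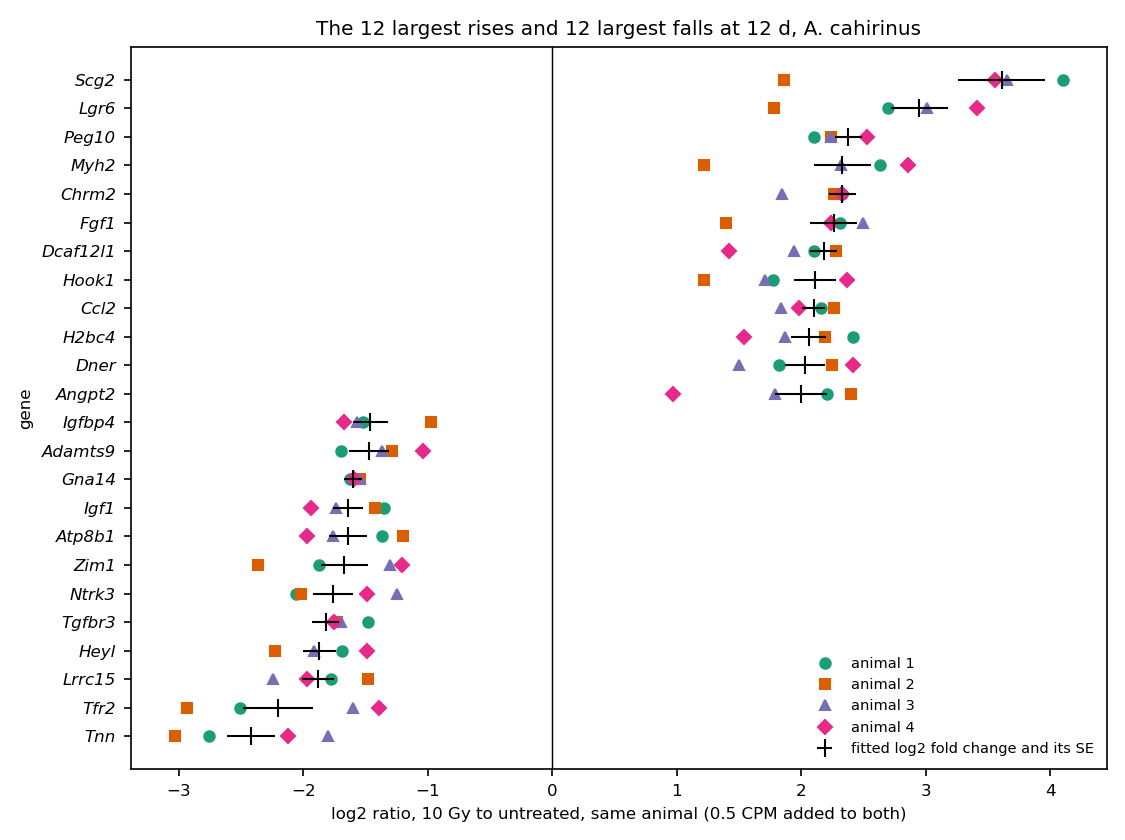
Log2 ratio of the 10 Gy to the untreated library of each animal (coloured symbols, 0.5 CPM added to both) for the 12 genes with the largest rise and the 12 with the largest fall, with the edgeR log2 fold change and its SE in black. All 4 animals lie on one side of 0 for each gene, as the choice of genes requires, and animal 2 has the smallest ratio for Scg2, Lgr6, Myh2, Fgf1 and Hook1.

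The dose was examined by testing 20 Gy directly against 10 Gy at 12 d. With the animal as a block, edgeR called 2426 of 13564 genes (17.9%), 1121 higher at 20 Gy (8.26%) and 1305 lower (9.62%). Without the block 62 were called (0.457%), 2 higher (0.0147%) and 60 lower (0.442%), and leaving out 1 animal gave 699, 4932, 573 and 567 calls for animals 1 to 4. The 4932 calls without animal 2 were 36.3% of the genes tested, 17.9% higher and 18.3% lower. Division genes separated the doses. Of 75 mitosis and kinetochore genes 63 were lower at 20 Gy and 1 higher, with a median log2 difference of -2.02 against 0 over all genes, and without the block 28 were lower and 0 higher. DNA replication genes were lower in 43 of 55 (median -0.77). In the fits without 1 animal, 50 to 67 mitosis genes and 21 to 47 replication genes were lower. Plk1, a kinase of mitosis, measured 13.4, 5.79, 26.3 and 16.8 CPM at 10 Gy and 0.574, 0.47, 1.2 and 0.854 CPM at 20 Gy (log2 difference -4.28, edgeR adjusted p = 8.73e-06, or 0.0372 without the block). Its untreated levels were 14.7, 17.6, 20.3 and 21.4 CPM, so at 10 Gy animal 2 lay far below the untreated range, animal 3 above it and the other two in it or just below.

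Mybl2, a transcription factor of late cell cycle genes, measured 8.21, 13.5, 13 and 12 CPM untreated, 11.2, 5.79, 21 and 14.7 CPM at 10 Gy and 0.478, 0.439, 1.53 and 0.825 CPM at 20 Gy. Cdc20, the activator of the anaphase-promoting complex, and the cytokinesis gene Kif23 were lower at 20 Gy than at 10 Gy as well (log2 differences -3.87 and -3.89, edgeR adjusted p = 4.21e-05 and 0.000105). The same held for the panel genes Mki67 (3.6, 3.35, 6.61 and 3.87 CPM at 20 Gy) and Lmnb1 (4.82, 4.14, 4.83 and 5.43 CPM), with log2 differences of -3.09 and -2.85 and edgeR adjusted p values of 0.000102 and 0.000394. Between the doses animal 2 dropped least in Mki67 and Lmnb1, from the lowest 10 Gy level of the 4 animals.

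Other lists shifted less between the doses. Of 52 p53 targets 17 were higher at 20 Gy and 2 lower, with a median of 0.19, and of 67 secretory genes 21 were higher and 6 lower, with a median of 0.25. Without the block 0 members of these 2 lists were called. In the fits without 1 animal the higher counts ranged from 5 to 26 for p53 targets and from 4 to 33 for secretory genes, both highest without animal 2. Cdkn1a reached 2430, 1550, 2120 and 2080 CPM at 20 Gy, a log2 difference of 0.50 from 10 Gy (edgeR adjusted p = 0.041, or 0.263 without the block). Tnn dropped further, to 7.94, 5.36, 14.1 and 33.9 CPM (log2 difference -3.21, edgeR adjusted p = 0.000205). The 4 genes named for the largest positive difference were Col22a1, Rxrg, Inpp5j and Rtl1, none of them called without the block. Col22a1 measured 27.8, 1.44, 40.8 and 11.3 CPM at 20 Gy. The retinoid receptor gene Rxrg measured 9.18, 0.851, 5.34 and 2.85 CPM at 10 Gy and 24.6, 1.1, 30 and 9.7 CPM at 20 Gy, and the phosphatase gene Inpp5j 6.75, 0.409, 3.65 and 1.71 CPM and 14.7, 1.28, 19.5 and 7.06 CPM. Animal 2 had the lowest level of these 3 genes at both doses, and it also had the lowest summed muscle markers at 20 Gy, which were 13700, 2460, 13600 and 14100 CPM; their part in the result was not tested. Rtl1, an imprinted gene derived from a retrotransposon, measured 2.63, 7.52, 1.29 and 1.05 CPM at 10 Gy and 8.26, 12.7, 14.7 and 5.29 CPM at 20 Gy.

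The change at 10 Gy was also compared between 12 d and 24 h. The times belong to separate batches, so each change was taken within its time and the difference of the changes was tested as an interaction. It was called for 3257 of 13521 genes (24.1%), with the 12 d change above the 24 h change in 1599 (11.8%) and below it in 1658 (12.3%), and for 496 genes without the block (3.67%, 1.6% above and 2.07% below). For mitosis and kinetochore genes the 12 d change was above the 24 h change in 71 of 77 and below it in 0, with a median difference of 1.25, and 20 were called without the block. For DNA replication genes the counts were 46 of 55 and 0 (median difference 0.79). Mki67 had gone from 277, 286, 313 and 279 CPM to 69.9, 47.9, 79.9 and 111 CPM at 24 h, a drop in each animal, and the difference from the 12 d change was 1.27 ± 0.31 SE in log2 (edgeR adjusted p = 0.0119, or 0.116 without the block). Hmgb2 had gone from 61.6, 67.3, 87 and 117 CPM to 18.8, 19.8, 25.2 and 36.6 CPM (difference 1.34 ± 0.14 SE, edgeR adjusted p = 0.00011, and 0.0495 without the block). Median changes of the mitosis list within animals at 24 h were -1.61, -1.97, -1.57 and -1.29, set beside the -0.23, -1.20, 0.04 and -0.30 at 12 d. The plain untreated libraries at 12 d held less Mki67 than the passaged library of the same animal, as given at the end. The part of this lower untreated level in the difference between times was not tested.

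The p53 targets split evenly in this comparison, with 9 of 52 above and 9 below. For Cdkn1a, which went from 381, 283, 354 and 268 CPM to 722, 699, 706 and 625 CPM at 24 h, the difference of changes was -0.25 ± 0.15 SE (edgeR adjusted p = 0.24). Cdkn2a and Cdkn2b had larger changes at 12 d, by 0.71 ± 0.12 and 0.43 ± 0.09 SE in log2 (edgeR adjusted p = 0.00177 and 0.00497): Cdkn2a measured 29, 34, 24.4 and 25.1 CPM untreated and 30, 48.3, 25.5 and 25.5 CPM irradiated at 24 h. Collagens had 15 of 36 below and 4 above, and interferon-stimulated genes 10 of 34 below and 0 above. Without the block 1 gene was below and 0 above in each of these 2 lists. The genes named for the largest differences include Scg2, Lgr6, Tnn, Nefl and Islr. Scg2 measured 5.24, 9.41, 6.5 and 2.11 CPM untreated and 5.67, 9.39, 7.58 and 2.99 CPM irradiated at 24 h, and Lgr6 73, 26.8, 71.1 and 53.1 against 88.4, 32.3, 90.4 and 92.3 CPM. Tnn measured 68.3, 63.9, 63.4 and 95 CPM untreated and 56.7, 68.7, 69.1 and 85 CPM irradiated at 24 h, overlapping ranges in place of the 12 d fall. The neurofilament gene Nefl measured 2.34, 1.22, 5.95 and 11.7 CPM untreated and 1.22, 1.13, 2.72 and 5.21 CPM irradiated at 24 h, lower in each animal. At 12 d it measured 5.85, 2.19, 6.28 and 2.74 CPM untreated and 11.2, 2.96, 19 and 14.4 CPM irradiated, higher in each animal. Islr, a gene of stromal cells, had 12 d values of 51.2, 27.4, 76.9 and 95.4 CPM untreated and 23.1, 7.9, 26.3 and 38.2 CPM irradiated, against 3.57, 1.4, 3.98 and 7.67 and 4.58, 2.81, 5.85 and 9.77 CPM at 24 h.

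Against C56BL6 fibroblasts at 12 d, the change at 10 Gy differed in 3512 of 13889 genes (25.3%), higher in *A. cahirinus* in 1742 (12.5%) and lower in 1770 (12.7%), and in 833 genes without the block (6%, 2.83% higher and 3.17% lower). The tables were counted on different genomes and the populations differ in muscle markers as given above, so population, genome and cell makeup cannot be told apart. In C56BL6, summed fibroblast markers also went from 34800 to 55600 CPM untreated to 14700 to 17300 CPM at 10 Gy, without overlap. C56BL6 replicate 1 held keratinocyte markers at 1260 CPM untreated and 393 CPM at 10 Gy, against 4.92 to 31.2 CPM in the other C56BL6 libraries. The part of either in the results was not tested, and without replicate 1 of both populations 2939 genes were called. Without replicate 3 the count was 1438. Few division genes passed this test: 3 of 78 mitosis genes had a higher and 1 a lower change in *A. cahirinus*, with a median difference of -0.01. The within-animal medians of that list in C56BL6 were -0.55, -0.81, 0.17 and -0.05, so its animals also differed among themselves. Mki67 measured 55.5, 15.6, 8.93 and 12.1 CPM in untreated C56BL6 libraries and 28.9, 7.37, 11 and 7.33 CPM at 10 Gy. With untreated levels this low in replicates 2 to 4, the test cannot show whether division genes respond alike in the populations. For Cdkn1a the difference of changes was -0.06 ± 0.19 SE (edgeR adjusted p = 0.86). Gdf15 went from 0.674, 3.72, 2.27 and 0.79 CPM to 9.71, 11, 14.2 and 9.77 CPM in C56BL6, where the groups did not overlap, and the difference from *A. cahirinus* was -2.72 ± 0.42 SE in log2 (edgeR adjusted p = 0.00121, and 0.0181 without the block). Mdm2 went from 96.2, 159, 104 and 105 CPM to 314, 397, 338 and 294 CPM in C56BL6, a larger change than in *A. cahirinus* by 0.80 in log2 (-0.80 ± 0.15 SE, edgeR adjusted p = 0.00321, or 0.2 without the block).

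By list, 16 of 53 p53 targets had a lower and 5 a higher change in *A. cahirinus* (median difference -0.14), and 19 of 47 interferon-stimulated genes had a lower and 3 a higher one (median -0.54, with 10 and 1 without the block). Matrix genes and collagens, some of which are among the fibroblast markers that were lower in C56BL6 at 10 Gy, lay the other way, with 33 of 68 and 16 of 38 higher in *A. cahirinus* and 7 and 2 lower, and so did cholesterol genes, with 18 of 30 higher and 0 lower. Median differences were 0.57 for matrix genes, 0.42 for collagens and 0.57 for cholesterol genes. Without the block 10, 8 and 7 members of these 3 lists were higher and 0, 1 and 0 lower. The matrix gene Fbn2 was named for 1 of the 4 largest positive differences over all genes, so it is not typical of its list. It went from 2.41, 32.9, 43.8 and 61.5 CPM to 0.289, 1.99, 2.4 and 3.26 CPM in C56BL6. In *A. cahirinus* it went from 0.376, 1.42, 1.01 and 0.554 CPM to 1.18, 3.92, 1.81 and 1.65 CPM (difference 5.42 ± 0.25 SE, edgeR adjusted p = 8.57e-07, and 0.0137 without the block). Car3 was at 2.38 to 20.8 CPM in untreated C56BL6 libraries and at 0.0633 to 0.608 CPM after 10 Gy, partly under the floor, so no size is read from its difference (edgeR adjusted p = 6.95e-07). Scg2, which rose in *A. cahirinus*, measured 5.64, 3.9, 2.07 and 2.14 CPM in untreated C56BL6 libraries and 2.53, 0.285, 0.064 and 0.241 CPM after 10 Gy, lower in each animal and under the floor in replicate 3, so no size is read there either (edgeR adjusted p = 0.000226). Nor is a size read for Hhatl, Crym, Bex4 and Fzd10, which were at 0 to 0.0365 CPM in untreated C56BL6 libraries, or for Egfl6, at 0.102 to 0.191 CPM in the 8 *A. cahirinus* libraries.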

How the data were processed

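Gene counts were analysed for 8 groups of 4 libraries. The authors' deposited files hold raw counts per gene, made with featureCounts 2.0.3 per the file headers, with gene names as features, paired fragments with both ends mapped and no strand option, on the AcoCah2 annotation for *A. cahirinus* and GRCm39 for mouse. Trim Galore and HISAT2 are named in the submitters' processing notes, with versions not given in the sources used here. Because reads were counted without strand, overlapping and antisense genes cannot be told apart.

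The counts were filtered with filterByExpr, scaled by TMM and tested with edgeR 4.0.16 in R 4.3.3 by the quasi-likelihood test, with the animal as a block and Benjamini-Hochberg adjustment over all genes tested at 0.05. Each SE was derived from that test, as the absolute log2 value divided by the square root of its F statistic. It is not the spread between animals. The scripts were tested on simulated data, drawn with the spread estimated under the blocked design for 10 Gy against untreated. There the blocked fit found 99% of the genes changed by a log2 value of 1, and 6.6% of its calls were false. Without the block these values were 59% and 0%. Both libraries of a pair were drawn from the same animal mean, and 100 well-counted genes were changed by each of the log2 values 1 and 2. The blocked model therefore held by design, so the simulation cannot show how many calls are false in the real libraries. CPM values were scaled within each time and population, so levels are compared within them only. Comparisons with 24 h and with C56BL6 tested the difference of 2 changes, the latter over gene symbols found once in each table (18109 shared). Replicate numbers were taken as pairs because each carries 1 animal code in the library names. Deviations from the group means correlated at 0.49 to 0.86 between libraries of the same number and at -0.76 to 0.35 otherwise. Replicates of a group differed by more than sampling noise (chi-square per degree of freedom 17.5 or more). Total counts were 28.4 to 41.8 M in the 8 libraries.

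The genes named are a panel of 11, the 12 largest rises and 12 largest falls among called genes that averaged 5 CPM or more and moved 1 way in all pairs, up to 4 called members per list that averaged 1 CPM or more, and the 4 largest differences in each direction of the 3 further comparisons. Marker genes and 3 CDK inhibitors were named besides. The comparison and the 21 lists were chosen with earlier results of these data known. Alternatives were no block, DESeq2's size factors (RLE), no expression filter, DESeq2 1.42.0, leaving out each replicate, and a fit over all 4 *A. cahirinus* groups at 12 d. Some genes that the rule names are not reported here. Wild mouse libraries and the remaining C56BL6 libraries were not used here.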

Additional observations from a re-analysis of the deposited data

Results flagged for a closer look

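Each group of 4 libraries of the named genes was examined for a library far from the other 3, by the gap to its nearest neighbour as a share of the whole range, against Dixon's critical value at 95%. It was passed in 27 of 246 groups (11%), where chance gives about 1 in 20. In 21 of the 27 the library was that of animal 2. Among its untreated libraries the shares were 0.851 for Angpt1, 0.929 for Ankrd1, 0.896 for Dcaf12l1, 0.87 for Dusp1, 0.938 for Efemp1, 0.83 for Ifih1 and 0.847 for Tpm2. Animal 2 was the highest of the 4 in each of these apart from Ankrd1, where it had 802 CPM against 1350 to 1390. In its 10 Gy library the shares were 0.971 for Angpt1, 0.951 for Atp8b1, 0.926 for Col6a1, 0.931 for Col6a2, 0.883 for Dcaf12l1, 0.874 for Dusp6, 0.84 for Ifih1, 0.831 for Ifitm3, 0.85 for Igfbp4, 0.959 for Lpl and 0.838 for Peg10, all with animal 2 highest. It was lowest at 10 Gy for Cyfip2 (0.894), Il11 (0.866) and Synpo2 (0.894), the last at 279 CPM against 754 to 810. The remaining groups were those of animal 3 at 10 Gy for C2 (0.835), Cenpa (0.842) and Rfc4 (0.88), animal 3 untreated for Fanci (0.848), animal 1 untreated for Cenpa (0.958) and animal 1 at 10 Gy for Pmaip1 (0.918).

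Named genes whose change at 10 Gy differed between 12 d and 24 h were listed by the interaction test (edgeR adjusted p under 0.05). The 12 d change was the higher by a log2 value of 0.71 for Cdkn2a, 0.43 for Cdkn2b, 1.27 for Mki67, 1.16 for Top2a, 1.14 for Lmnb1, 1.34 for Hmgb2, 3.42 for Scg2, 2.54 for Lgr6, 2.35 for Nefl and 2.18 for Peg10. It was the lower for Tnn (-2.37), Tfr2 (-2.23), Islr (-1.94) and Ntrk3 (-1.93). Between the populations the *A. cahirinus* change minus the C56BL6 change was -0.8 for Mdm2, -2.72 for Gdf15, 0.86 for Cdkn2a, 6.6 for Car3, 6.44 for Egfl6, 6.16 for Scg2 and 5.42 for Fbn2. It was -6.81 for Hhatl, -6.66 for Crym, -6.36 for Bex4 and -6.19 for Fzd10, where untreated C56BL6 libraries were at or near 0. The values of these 4 genes and of Car3, Egfl6 and Scg2 depend on the prior count, because libraries of 1 group lay at or under the floor or close to it, and are not read as sizes.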

How the results depend on the processing

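The replicate block set most counts of calls. Without it, genes called fell from 3638 to 379 for 10 Gy against untreated, from 2426 to 62 for 20 Gy against 10 Gy, from 3257 to 496 for the difference between times and from 3512 to 833 for that between populations, and lists with more members higher than lower went from 12 to 6 of 21. Leaving out 1 replicate gave 1175 to 3564, 567 to 4932, 1389 to 3795 and 1438 to 2939 calls in the same order, and 10 to 13 lists. The cause was not tested. Other scaling, no expression filter and DESeq2 kept each of these totals within 1.5 times, as did the fit over 4 groups where it was run, but DESeq2 took the mitosis genes lower at 10 Gy from 8 to 19 and the envelope genes from 4 to 7. Of 126 named genes tested for 10 Gy against untreated, 95 lost the call without the block, 42 without replicate 1, 28 without replicate 3 and 13 without replicate 2 or 4. Direction turned for Crym, which ranged from -0.25 to 0.02 without 1 replicate (0.02 without replicate 4), and for Mybl2, from -0.13 to 0.48 (-0.03 without replicate 1, -0.13 without replicate 3). Mybl2 passed the threshold without replicate 2 only. With 4 animals, no strand in the counting, time tied to batch and muscle markers in the cultures, small changes and their cell of origin cannot be resolved.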

Other observations

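Some marker genes of cell types other than fibroblasts changed at 10 Gy, several of them at low levels. Of 5 tested endothelial markers 3 were higher, of 8 keratinocyte markers 3 and of 5 Schwann cell markers 2, with none lower. Of 8 pericyte or smooth muscle markers 1 was higher and 3 lower, and of 14 fibroblast markers also 1 and 3. None of 4 macrophage markers was called, and 1 of 3 melanocyte and 1 of 2 adipocyte markers were higher. Over all genes 14.2% were called higher and 13.4% lower. Ngfr, a neurotrophin receptor of Schwann cells that stromal cells can also express, went from 0.81 ± 0.836 to 6.25 ± 5 CPM (SD, n = 4; edgeR adjusted p = 0.00103, or 0.103 without the block). Pecam1, an adhesion molecule of endothelium, went from 0.165 ± 0.141 to 0.881 ± 0.391 CPM (SD, n = 4, edgeR adjusted p = 0.00365, or 0.0889 without the block). Sfn, a p53 target that is also a keratinocyte marker, went from 0.153 ± 0.08 to 1.05 ± 0.403 CPM (SD, n = 4; edgeR adjusted p = 0.0031, and 0.0366 without the block). The calcium-binding protein gene S100b went from 1.3 ± 0.282 to 2.92 ± 0.737 CPM (SD, n = 4, edgeR adjusted p = 0.00473, or 0.0517 without the block).

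The group labelled untreated and passaged was a side of no test here. It had Mki67 at 108 to 137 CPM in animals 1, 3 and 4 and 73.9 CPM in animal 2, above the plain untreated library of each animal. Its summed muscle markers were 5810, 2360, 5370 and 4610 CPM.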
